A study of Drosophila melanogaster with 4 samples.

Results

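Chromosome 4 is the smallest chromosome of Drosophila melanogaster, and its genes are described here as a group in adult fly heads with and without lamin-B overexpression. The group holds every gene that the BDGP6 annotation places on chromosome 4 and that had a mean normalized count above 0, which is the number of reads of a gene after correction for library size, averaged over the libraries. There were 109 such genes among 15282 genes with any count and 17753 genes in all. Of the 111 chromosome 4 genes in the table, only the pseudogene CR43361 and the antisense RNA asRNA:CR43425 had no count. The members nearest that limit were CR32009 and lncRNA:CR45199, with 1 read each over the 4 libraries. Protein-coding genes numbered 79, noncoding RNA genes 24, pseudogenes 5 and small nucleolar RNA genes 1.

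RNA came from pooled heads of day 30 adults. The 2 lamin-B overexpression samples had the genotype Hsp70-Gal4/+; +/UAS-LamB.GFP, in which a heat shock gene promoter drives the yeast activator Gal4. Gal4 switches on the transgene, which encodes lamin B fused to GFP. In the control sibling group, 2 samples had the genotype +/+; +/UAS-LamB.GFP and so carried the transgene without the driver. Both groups therefore held the transgene, and no sample held the driver alone. The labels do not describe the fourth chromosomes of either group, so the driver, the overexpression and any difference in inherited chromosomes cannot be told apart. Nothing says that replicates came from separate cultures, so the p-values speak for the spread among these 4 samples alone, and that spread may be technical.

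Chromosome 4 is unusual because its gene-bearing arm is packaged largely as heterochromatin, with the histone mark H3K9 methylation and the protein HP1a along it, and yet most of its genes are transcribed at ordinary levels. The protein encoded by Pof binds nascent transcripts across the chromosome and raises their output, while the methyltransferase encoded by egg deposits the heterochromatin mark there. Lamins form the nuclear lamina, the protein mesh under the inner nuclear membrane against which much heterochromatin lies. Genes of the chromosome also tend to be long, with introns full of transposable element remnants.

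In the annotation used here, 566 transposable elements were listed on chromosome 4, and they covered 334 kb of the 1345937 bases up to its last annotated feature. At least 1 of them lay within the span of 72 of the 109 members. Among the 72 members whose mean normalized count reached 1000, the median share of the gene span covered by such elements was 10.8%, and among the 4738 other tested genes at that level the median was 0%. The median span of the same members was 10.5 kb, against 4.92 kb for the other genes, and introns made up a median of 51.0% of the span, against 32.0%.

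Chromosome 4 genes held 2.17% of the summed mean normalized counts of all genes. Size factors, the authors' scaling for depth, were 1.10 and 1.15 in the overexpression group, against 0.73 and 1.09 in the controls, and the total count per library is unknown. Lam, which encodes lamin B, was higher by 1.04 (SE 0.0801) on the log2 scale in the authors' deposited table. Its sign was used to set the direction of the comparison, so it is no check of the labels, and the transgene is not separated from the native gene. Neuron markers were present in quantity, with mean normalized counts of 6140 for elav and 41834 for nSyb. The authors' deposited table called 2 of the 5 neuron markers lower, elav at -0.34 and Snap25 at -0.28, and put the 5 between -0.34 and -0.05. It called 0 of 3 glial markers, 1 of 4 photoreceptor markers lower, 2 of 2 muscle markers higher and 3 of 3 testis and accessory gland markers higher.

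Most tested chromosome 4 genes had lower values in the overexpression heads, by modest amounts. The authors' test gave an adjusted p-value for 96 members, and at an adjusted p under 0.05 it called 25 of them lower and 1 higher. Lower calls made up 3.07% of all 11757 tested genes, and calls in either direction made up 8.74% of all tested genes. Over all tested genes there were 361 lower and 666 higher calls, and 292 lower and 887 higher when fold changes were centred on the median of genes with a mean of at least 500, which left 22 members lower and 1 higher. The log2 fold change was below 0 for 83 of the 96 members, or 86.5%, while 47.9% of all tested genes lay below 0. The median was -0.19 for the members and 0.01 for all tested genes, on the log2 scale of the authors' deposited table, where changes are shrunken towards 0. The 13 members without an adjusted p-value all had low counts, so the 96 are those with counts high enough for an adjusted p-value and not the whole chromosome. In bulk heads, fewer cells of a type and less RNA per cell cannot be told apart.

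The shrinkage could be undone where a mean normalized count reached 1000 and the standard error did not exceed 0.12, and a level estimated for each group. This held for 62 members, and 58 of them had the lower estimate in the overexpression heads. Their median log2 fold change with shrinkage undone was -0.22, and the 21 called lower among them fell by 22.4% at the median; Cals fell by 14.7%, the least, and Pur-alpha fell by 32.4%, the most. The table used here holds no values per library for genes at this level, so overlap between single samples could not be examined. Of the 10 members with a larger standard error, 4 were called, namely sv, dpr7, RhoGAP102A and asRNA:CR44029.

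**Figure D1:**
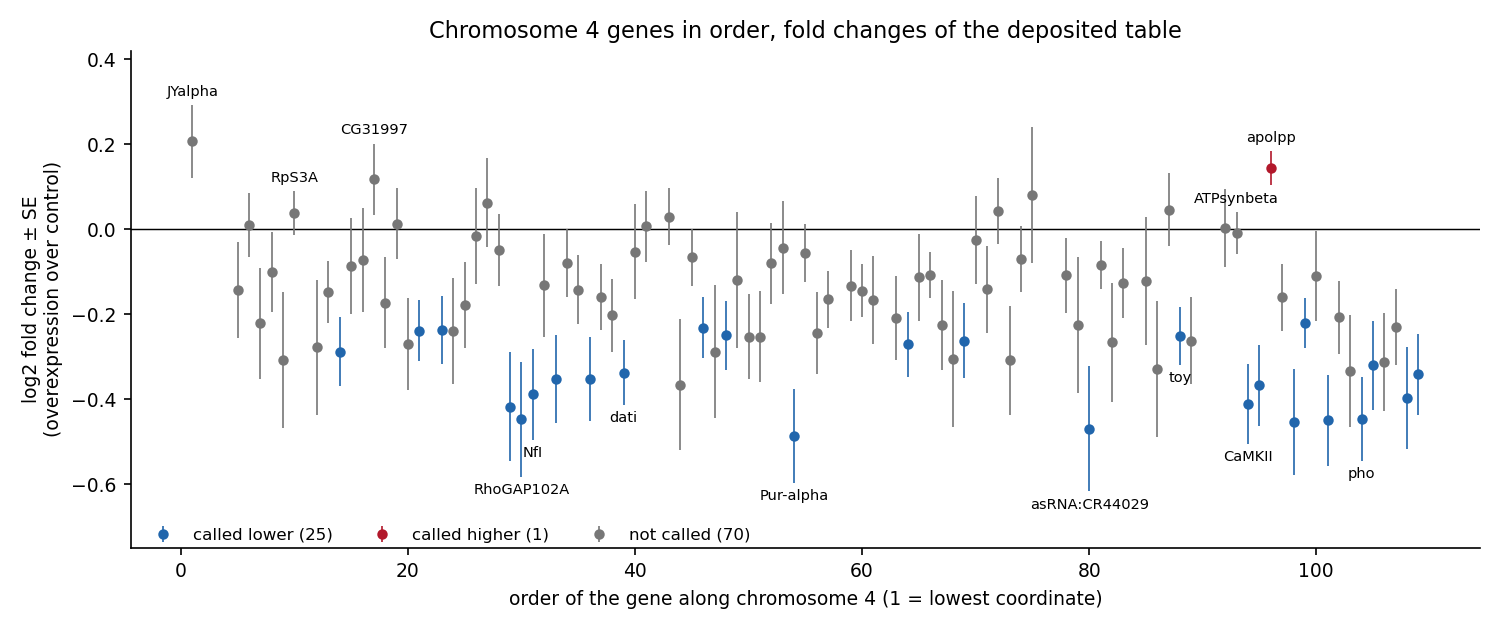
Log2 fold change with its standard error in the deposited table (vertical axis) for the 96 tested chromosome 4 genes, in their order along the chromosome (horizontal axis, numbered over all 109 members). The 25 genes called lower (blue) lie along the whole chromosome between -0.49 and -0.22, and apolpp (red, 0.14) is the gene called higher.

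Lower values ran along the whole chromosome. Of the 72 members whose mean reached 1000, 68 lay below 0 and 25 were called lower (34.7%), against 59.1% and 6.49% of all tested genes at that level. With members of lower mean skipped, the longest run of such genes below 0 held 48, from CG33978 to PlexA. Tested members of lower mean that lie above 0, such as fd102C, fall within that stretch. With 68 of 72 below 0, some long run is unavoidable. The 4 members at that level above 0 were RpS3A, CG31997, CG11076 and apolpp. The longest run of called genes, counted in the same way, held 4, namely dpr7, RhoGAP102A, NfI and Syt7.

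Cut into 3 parts of equal annotated length, the chromosome had 9 of 39 tested genes called lower in the part with the lowest coordinates, 6 of 31 in the middle part and 10 of 26 in the part with the highest coordinates. Median log2 fold changes in the authors' deposited table were -0.15, -0.17 and -0.26 in that order. Over all 96 tested members the share called lower was 26.0%, against 3.07% of all tested genes. Across the 72 members with a mean of at least 1000, Spearman's correlation of the fold change with the start coordinate was -0.16, and with the fold change of the next gene it was -0.10 over 71 pairs. These correlations describe genes measured in the same 4 libraries. Lower calls made up 11 of 48 tested genes on the plus strand and 14 of 48 on the minus strand.

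All calls fell among members with a mean normalized count above 1000. No member with a mean normalized count of up to 1000 was called, out of 24 tested. Between 1000 and 10000, 20 of 57 members were called lower (35.1%), against 5.03% of 4138 other genes, and the medians were -0.24 and -0.03 in the authors' deposited table. Above 10000, 5 of 15 members were called lower and 1 higher, while 13.2% of 600 other genes were called lower and the medians were -0.16 and 0.00. Between 100 and 1000, the 8 members had a median of -0.30 and 0 calls, while the 3859 other genes had a median of 0.00 and 1.11% were called lower. Below 100, the 16 members had a median of -0.02 and 0 calls. The 3064 other genes there had a median of 0.07, with 6 called lower (0.196%) and 314 higher. The standard errors of members were slightly larger than those of other genes at a mean of at least 1000, with medians of 0.0946 and 0.0856.

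**Figure D2:**
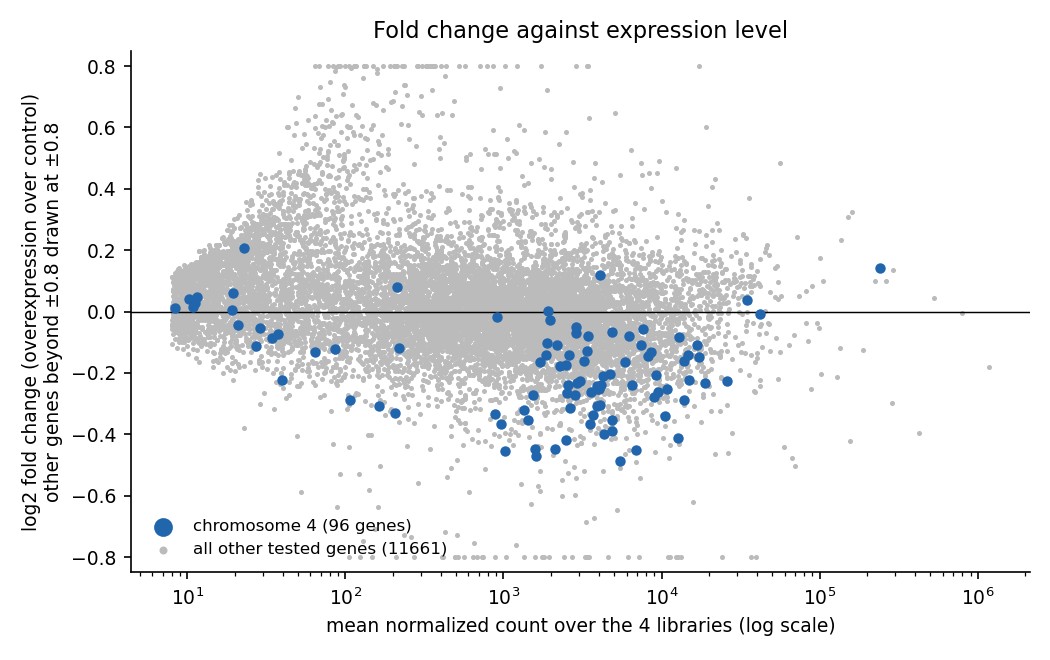
Log2 fold change (vertical axis) against the mean normalized count over the 4 libraries (horizontal axis, log scale) for the 96 tested chromosome 4 genes (blue) and the 11661 other tested genes (grey, drawn at the edge when beyond 0.8). Of the chromosome 4 genes with a mean of at least 1000, 68 of 72 lie below 0.

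Per kilobase of exon, the highest levels on the chromosome were those of the ribosomal protein gene RpS3A, with a mean normalized count of 25895 per kb, apolpp with 20347 per kb and ATPsynbeta, the beta subunit of mitochondrial ATP synthase, with 17544 per kb. CG31997 and CaMKI followed, with 5607 and 5530 per kb. Among these 5, CaMKI was the one called lower.

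Gene span went with the fold change over the whole genome. At a mean of at least 1000, the Spearman correlation of span with fold change was -0.14 over 72 members and -0.36 over the other 4738 genes. The values of chromosome 4 genes lay below those of other genes of like span. For spans of 5 to 20 kb, 22 of 48 members were called lower (45.8%) against 7.18% of 1573 other genes, with medians of -0.24 and -0.05 in the authors' deposited table. For spans over 20 kb, 3 of 12 members were called lower, against 10.9% of 751 other genes, and the medians were -0.23 and -0.13. Members shorter than 5 kb had a median of -0.10 and 0 of 12 were called, while the 2373 other short genes had a median of 0.01 and 3.75% were called lower. Within 1 class of both span and level, 5 to 20 kb and a mean of 1000 to 10000, 39 of 39 members lay below 0 and 18 were called lower (46.2%), against 67.3% and 6.19% of 1390 other genes.

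**Figure D3:**
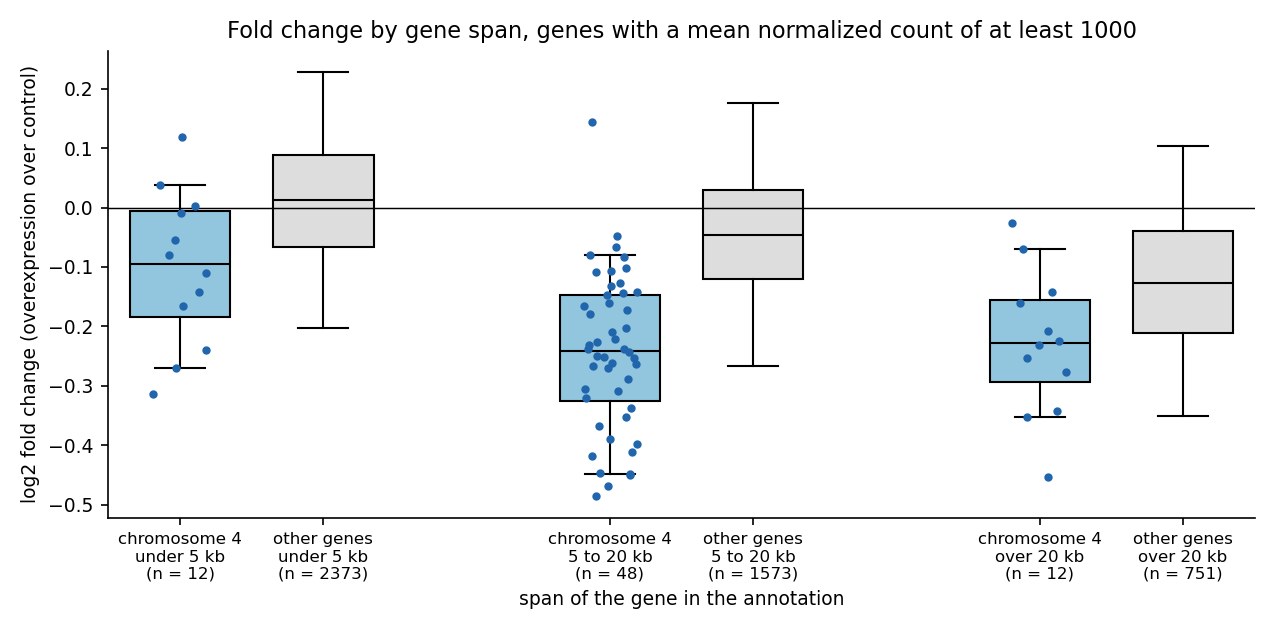
Log2 fold change (vertical axis) by gene span for genes whose mean normalized count reached 1000, chromosome 4 (blue boxes, with each gene as a point) beside all other genes (grey boxes); boxes show quartiles and median, whiskers the 5th and 95th percentiles. The medians on chromosome 4 are -0.10, -0.24 and -0.23 for spans under 5 kb, of 5 to 20 kb and over 20 kb, beside 0.01, -0.05 and -0.13 for other genes.

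Members were also compared by the share of their span in transposable elements. Of the 19 members at that level with over 20% of the span covered, 8 were called lower and the median was -0.31, against 10.1% called lower and a median of -0.08 for 109 other genes with such coverage, in the authors' deposited table. With 5 to 20% covered, 12 of 31 members were called lower and the median was -0.23, against 10.4% and -0.12 for 202 other genes. With less than 5% covered, 5 of 22 members were called lower and the median was -0.17, against 5.75% and -0.02 for 4386 other genes. With shrinkage undone, the medians were -0.24 over 16 members with over 20% covered and -0.25 over 27 with 5 to 20%. Over 19 members with less than 5% covered, the median was -0.16. The 2 higher classes thus had nearly equal medians, but over smaller gene sets, without members whose standard error exceeded 0.12. From the highest class this left out dpr7, MED26 and CG11360, with shrunken values of -0.42, -0.31 and -0.31. From the middle class it left out sv, mGluR, unc-13 and pan, at -0.45, -0.27, -0.22 and -0.28. The near equality can therefore not be put down to the scale. The Spearman correlation of this coverage with the fold change was -0.35 over the 72 members and -0.19 over the other genes. For the intron share of the span it was -0.31 and -0.24 in the same order. For the standard error it was -0.58 and -0.13, so coverage was not the strongest correlate among members. The separate parts of coverage, span, intron share and standard error in the result were not tested.

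Genes for transcription factors and chromatin proteins are many on this chromosome. Of 20 in the list, 7 were called lower and 0 higher, with a median of -0.25 in the authors' deposited table. For this list and those below, the share called lower over all tested members was 26.0%, against 3.07% of all tested genes. At a mean of at least 1000, these shares were 34.7% and 6.49%. The smallest adjusted p-value of the chromosome was that of pho (FBgn0002521, BDGP6 chromosome 4, 1172469 to 1181628), a DNA-binding Polycomb group gene that helps to keep developmental genes silent. Its estimated normalized count was 1753 in overexpression heads and 2478 in controls, a log2 fold change of -0.50 (SE 0.110) with shrinkage undone (in the authors' deposited table, adjusted p = 2.54e-04). The zinc finger gene dati (FBgn0262636, 375640 to 395605), which is needed in neurons for female mating behaviour, had estimates of 3206 in overexpression heads and 4112 in controls (in the authors' deposited table, adjusted p = 3.91e-04). Pur-alpha (FBgn0022361, 558016 to 567257), for a protein that binds single-stranded DNA and RNA, had estimates of 4387 in overexpression heads and 6485 in controls. Its log2 fold change of -0.56 (SE 0.129) with shrinkage undone was the lowest among the 62 members with an estimated level. All 3 were called, and the estimate of Pur-alpha fell by 32.4%.

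The Pax genes of the chromosome differed in their calls. Toy, the upstream member of the pair of Pax6 genes that start eye development, had estimates of 3554 in overexpression heads and 4267 in controls (in the authors' deposited table, adjusted p = 0.00577). Its paralog ey was estimated at 1937 in overexpression heads and 1977 in controls and was not called, at -0.03 (SE 0.104) in the authors' deposited table. Sv, the Pax2 gene of cone cells and bristles, was lower at -0.45 in the authors' deposited table (SE 0.125; adjusted p = 0.00639). The difference between these genes was not tested. NfI, a nuclear factor I gene, was estimated at 4117 in overexpression heads and 5612 in controls, and Taf3, for a subunit of the general factor TFIID, at 3652 and 4396 in the same order. Ci, the transcription factor of Hedgehog signalling, lgs, a co-activator of Wnt targets, and Sox102F were not called, at -0.10, -0.07 and -0.07 in the authors' deposited table.

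Of the genes with roles in neurons and synapses, 10 of 22 were called lower and 0 higher, while 22 of 22 lay below 0 with a median of -0.27 in the authors' deposited table. The lipoprotein gene apolpp, which is higher, had stood in this list in error and was taken off after the data were seen. With it, 10 of 23 were called lower and 1 higher, with 22 of 23 below 0. Nearly all genes of the other lists also lay below 0. The counts were 19 of 20 for transcription, 16 of 17 for housekeeping, 12 of 13 for signals and 6 of 6 for structure. CaMKII (FBgn0264607, 1035288 to 1053703), the calcium-dependent kinase of synaptic plasticity and memory, had estimated counts of 10661 in overexpression heads and 14604 in controls, a log2 fold change of -0.45 (SE 0.103) with shrinkage undone (in the authors' deposited table, adjusted p = 4.18e-04). CG11155 (FBgn0039927, 1126602 to 1137919), for a kainate-type glutamate receptor subunit, had 5638 in overexpression heads and 8060 in controls (in the authors' deposited table, adjusted p = 8.75e-04). Ekar, a kainate receptor gene of the eye, was estimated at 2568 in overexpression heads and 3136 in controls. Among these 3 genes, the estimate of Ekar fell by 18.1% and that of CG11155 fell by 30.1%.

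Genes of vesicle release showed both called and uncalled members. Cadps, which primes dense core vesicles that carry neuropeptides, was estimated at 9176 in overexpression heads and 11937 in controls (in the authors' deposited table, adjusted p = 0.00782). Syt7, a synaptotagmin gene for a calcium sensor of release, was estimated at 4179 in overexpression heads and 5512 in controls (in the authors' deposited table, adjusted p = 0.0121). Unc-13, which makes synaptic vesicles ready for fusion, stood at -0.22 with a standard error of 0.160 in the authors' deposited table and was not called (adjusted p = 0.509). That error was close to the largest in the whole table, and pan stood at -0.28 with an error of 0.159 in the authors' deposited table.

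Among genes of the neuronal surface, Cals, for the membrane protein calsyntenin, was estimated at 13768 in overexpression heads and 16143 in controls (in the authors' deposited table, adjusted p = 0.00436). Dpr7, for an immunoglobulin-domain protein, was lower at -0.42 in the authors' deposited table (SE 0.129; adjusted p = 0.0191). The axon guidance receptor gene PlexA, the ligand gene Ephrin and its receptor gene Eph were not called, at -0.26, -0.24 and -0.14 in the authors' deposited table. PMCA, for a calcium pump, and Ank, for ankyrin, were not called either, at -0.16 and -0.15 in the authors' deposited table. Dati, Pur-alpha, onecut and fuss are counted in this list as well as among the transcription genes. The lower values of neuron markers on other chromosomes moved with those of this list, and their part in it was not tested.

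**Figure D4:**
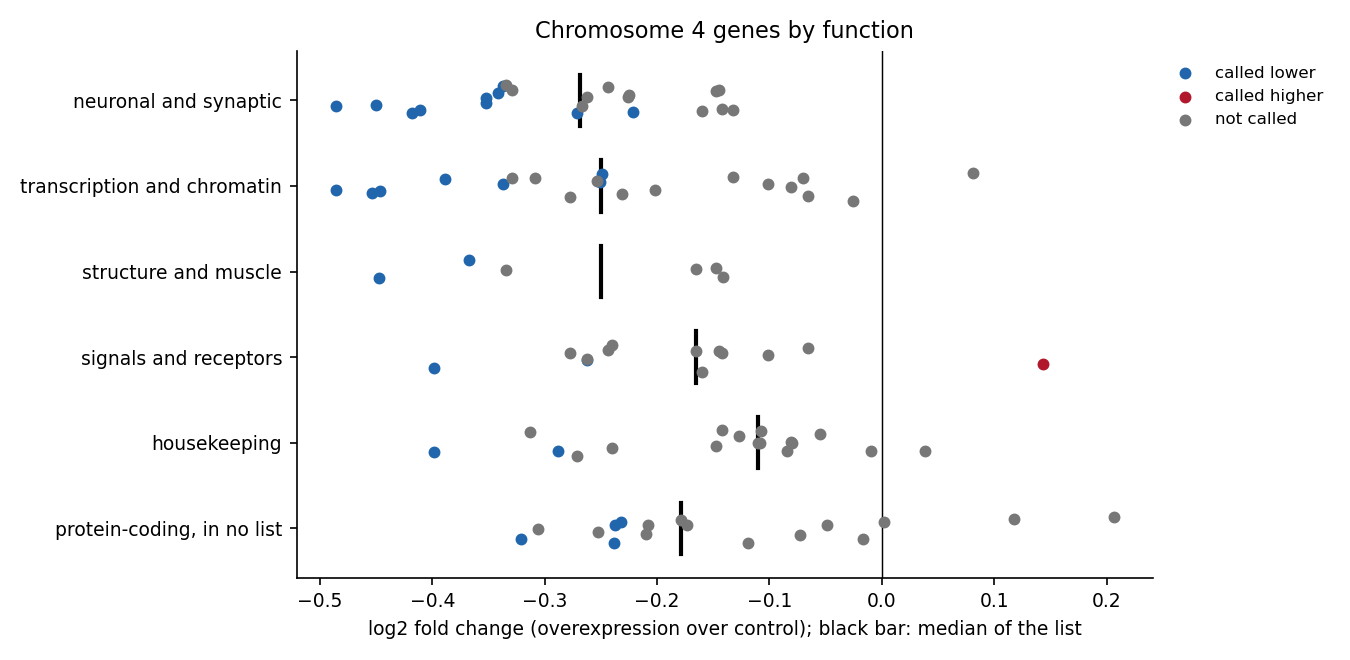
Log2 fold change (horizontal axis) of chromosome 4 genes in 6 groups by function (rows), 1 point a gene, with the median as a black bar; a gene may stand in more than 1 row. The neuronal row has a median of -0.27 with 22 of 22 genes below 0 (22 of 23 with apolpp, taken off after the data were seen). The housekeeping row has a median of -0.11 with 16 of 17 genes below 0.

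The list of signals and receptors had 2 of 13 members called lower and 1 higher, with a median of -0.17 in the authors' deposited table. It also held ci, pan, lgs, Crk, Dyrk3 and apolpp, which are neither secreted signals nor receptors. Of its called genes, only myo encodes a signal, and Dyrk3 is counted among the housekeeping genes as well. Myo, which encodes myoglianin, a ligand of the TGF-beta family, was estimated at 3232 in overexpression heads and 3940 in controls (in the authors' deposited table, adjusted p = 0.0368). The related ligand genes Actbeta and mav were not called, at -0.16 and -0.17 in the authors' deposited table. Dyrk3, for a protein kinase, was estimated at 3594 in overexpression heads and 5007 in controls (in the authors' deposited table, adjusted p = 0.0156). The member called higher was apolpp (FBgn0087002, 1060969 to 1077273), which encodes the main lipid-carrying protein of the blood and is made in the fat body. Its estimated count was 251486 in overexpression heads and 227311 in controls, 10.6% higher (in the authors' deposited table, adjusted p = 0.00655). Higher calls made up 5.66% of all tested genes.

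Genes of cell structure had 2 of 6 called lower. Zyx, for the adhesion protein zyxin, was estimated at 3049 in overexpression heads and 4045 in controls (in the authors' deposited table, adjusted p = 0.00331). Its span overlaps the start of apolpp on the other strand, and the fold changes of the pair had opposite signs. RhoGAP102A was lower at -0.45 in the authors' deposited table (SE 0.135; adjusted p = 0.0161). Bt, for the giant muscle protein projectin, was not called, at -0.14 (SE 0.102) in the authors' deposited table.

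Among housekeeping genes with a test, 2 of 17 were called lower and 0 higher, with a median of -0.11 in the authors' deposited table. With CG31998 and RhoGAP102A, which were taken off this list after the data were seen, 4 of 19 were called lower and the median was -0.13 in the authors' deposited table. No difference from the other lists was tested. RpS3A was estimated at 35409 in overexpression heads and 34456 in controls, a log2 fold change of 0.04 (SE 0.0527) with shrinkage undone. ATPsynbeta was estimated at 41721 in overexpression heads and 41998 in controls, and ND-49, for a subunit of respiratory complex I, at 7450 and 7756 in the same order. RpS3A, ATPsynbeta and ND-49 differed by less than their standard errors. The other tested genes of this list shorter than 5 kb were not called, but all lay below 0. In the authors' deposited table, Arl4, PIP4K and Crk stood at -0.27, -0.31 and -0.24. Rad23, Zip102B and Arf4 stood at -0.08, -0.14 and -0.11 there. EIF4G1, for a scaffold of translation initiation, and gw, for a core protein of microRNA silencing, were not called, at -0.08 and -0.11 in the authors' deposited table. Anne, for a P-type transport ATPase, was one of the genes called, with estimates of 12313 in overexpression heads and 15265 in controls, and Dyrk3 was the other.

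Of the 17 tested protein-coding members in none of these lists, 4 were called lower and 0 higher, with a median of -0.18 in the authors' deposited table. Among them were CaMKI, for a calcium-dependent kinase, CG33521 and CG31998. CaMKI was estimated at 17118 in overexpression heads and 20288 in controls. CG33521 had estimates of 1184 in overexpression heads and 1525 in controls, and CG31998 of 3795 and 4527 in the same order. CG31998, Taf3 and myo were no longer called when all fold changes were centred on the median of genes with a mean of at least 500. Rnf11, for a ubiquitin ligase and counted among the neuronal genes, had 56.5% of its span in transposable elements and was estimated at 1236 in overexpression heads and 1623 in controls (in the authors' deposited table, adjusted p = 0.00708). Members that just missed the threshold were also negative, with PIP4K at -0.31 and Mitf at -0.23 in the authors' deposited table (adjusted p = 0.0664 and 0.0864).

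Noncoding members had 1 of 17 tested genes called lower and 0 higher, with 10 below 0 (58.8%) and a median of -0.05 in the authors' deposited table. Among 519 other tested noncoding genes, 1.35% were called lower, 62.8% lay below 0 and the median was -0.03. The called member was asRNA:CR44029 (FBgn0264821, 879374 to 884752), at -0.47 in the authors' deposited table (SE 0.148, adjusted p = 0.0230). It lies within unc-13 on the opposite strand, and since the strand setting is unknown here, its reads and those of unc-13 cannot be told apart. In all, the spans of 49 of the 109 members overlap another annotated gene, counting 2 microRNA genes that overlap their own mature products. Among the 53 tested members that overlap none, 14 were called lower and 0 higher, a share of 26.4%, close to that of all tested members.

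Whole reads in each library could be recovered for 29 members with mean normalized counts of up to 100, most of them noncoding. Of these, 18 had at least 20 reads in all. Normalized reads in both overexpression libraries lay below both controls for 4 of the 18 and above both for 3, and the groups overlapped for the other 11. Over all 3717 genes with as many recovered reads, 10.7% lay below and 47.5% above. LncRNA:CR44440 had 31 and 27 reads in the overexpression samples, the first with size factor 1.10 and the second with 1.15, against 44 and 52 reads in the controls, the first with 0.73 and the second with 1.09. Its ratio after normalization was 0.488 (95% exact interval 0.346 to 0.684, counting error only), and the groups did not overlap.

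The libraries of 1 group differed widely for some members. LncRNA:CR44023 had 77 and 29 reads under overexpression, against 41 and 116 in the controls, in the same order of libraries, and asRNA:CR44027 had 37 and 7 under overexpression, against 11 and 24 in the controls. For both, the overexpression library with size factor 1.10 was the higher of its group and the groups overlapped. The pseudogene CR44028 had 30 and 10 reads under overexpression, against 31 and 33 in the controls, a ratio of 0.505 (95% exact interval 0.332 to 0.762). Its overexpression libraries also lay below both controls after normalization. The other members of that kind were lncRNA:CR43958, with 19 and 23 reads under overexpression against 16 and 27 in the controls, and the microRNA gene mir-954, with 4 and 0 reads under overexpression against 6 and 10 in the controls.

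JYalpha, which encodes a sodium and potassium pump subunit needed for sperm motility, had the largest ratio among the 18. It had 76 and 20 reads under overexpression, against 3 and 1 in the controls, a ratio of 19.4 (95% exact interval 7.34 to 72.7). Both overexpression libraries were higher than both controls, yet the authors' deposited table did not call it (adjusted p = 0.118). Leaving out the overexpression library of size factor 1.10 gave a ratio of 7.94, and leaving out the one of 1.15 gave 31.3. Leaving out the control of size factor 0.73 gave 46.5, and the one of 1.09 gave 10.4. The 3 testis and accessory gland markers were called higher beside it, and their part in this value was not tested. LncRNA:sphinx, a chromosome 4 RNA gene tied to male courtship, had 14 and 17 reads under overexpression, against 8 and 8 in the controls, an interval of 0.831 to 3.07 for the ratio. The groups also did not overlap for asRNA:CR46065, with 22 and 30 reads under overexpression against 10 and 20 in the controls.

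**Figure D5:**
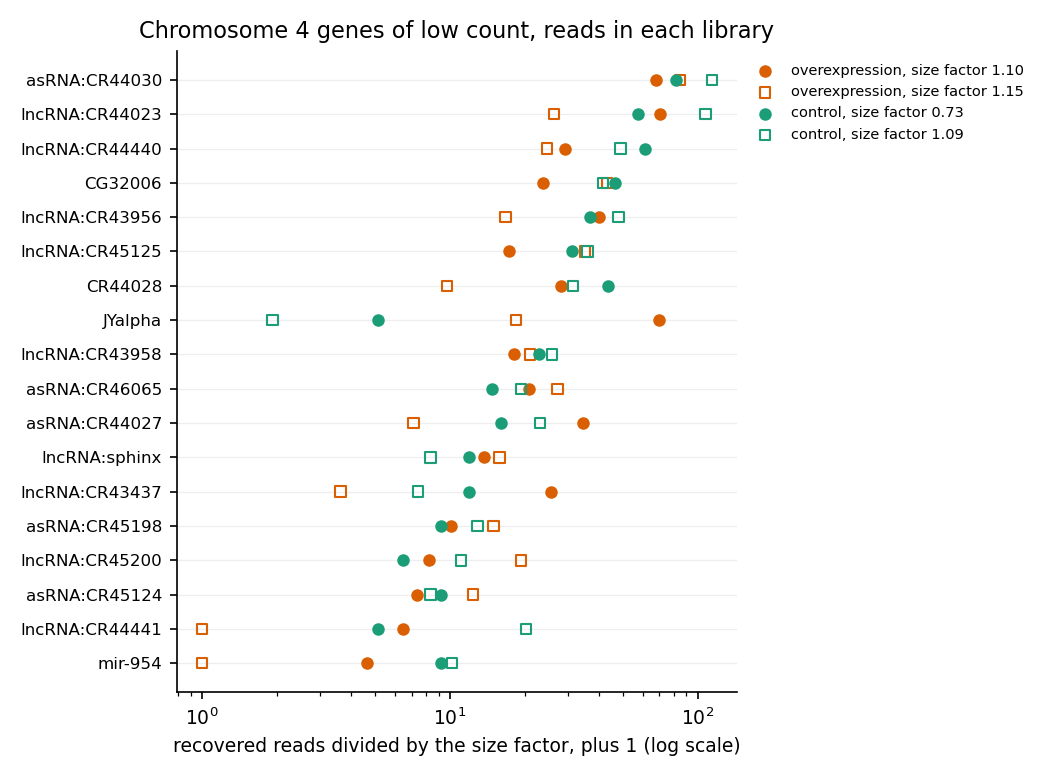
Reads recovered in each library divided by its size factor, plus 1 (horizontal axis, log scale), for the 18 chromosome 4 genes with recovered counts and at least 20 reads in all (rows); orange marks the 2 overexpression libraries and green the 2 controls. The groups are apart for JYalpha, with overexpression higher, and overlap for 11 of the 18 genes.

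The list of genes that act on chromosome 4 or on its chromatin, with those of dosage compensation, came from the rest of the genome. Of its 20 genes, 3 were called lower and 0 higher, against 3.07% lower and 5.66% higher over all tested genes, with a median of -0.04 in the authors' deposited table. Pof stood at 0.41 (SE 0.156, adjusted p = 0.0829) and was not called in the authors' deposited table. Egg was at -0.05 (SE 0.113) and the gene that encodes HP1a at -0.07 (SE 0.0834), and neither was called in the authors' deposited table. The called members belong to X chromosome dosage compensation in males, the RNA genes roX1 and roX2 at -0.26 and -0.44 and the helicase gene mle at -0.30, in the authors' deposited table.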

How the data were processed

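The submitters' processing notes name STAR 2.5, DESeq2 1.22.1, HTSeq and DESeq, and the build BDGP6, without roles or order. No strand setting or filter is named (not given in the sources used here). Per gene, the authors' deposited table gives a mean normalized count (a signal over the libraries), a log2 fold change, its standard error, a Wald score, and a p-value with its adjusted p-value. Group order in the table's name and the sign of Lam set the direction, overexpression over control. The design assumed that counts per library might be given; none are in the tables used here, so the authors' Wald test was used. A second table names no groups and was not used. Promoter motifs were not analysed here.

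Gene places, exons and transposable elements came from Ensembl release 115 on BDGP6; 127 genes had no place in it, 102 of them with a mean above 0. Fold changes were unshrunken through the bound of the standard errors (prior precision 9.73). On 864 genes with recovered reads the result differed from the read ratio by a median of 0.0153 (absolute, log2). Reads were recovered only for means of up to 100. That check therefore held none of the genes with a mean of at least 1000 whose group levels are given here. Reads were recovered as whole numbers whose sum, scaled by size factors, gives the mean; library sides came from the sign of genes with 1 read. The steps were tested on simulated data. For the shrinkage step, the simulation used the same formula with a known prior, so it tests only the arithmetic. It cannot show that the deposited values followed that formula. Deposited adjusted p-values equalled a recomputed Benjamini-Hochberg adjustment to within 1.86e-06. Intervals are exact binomial ones and cover counting error only. Python 3.11.15, numpy 2.4.6, pandas 2.3.3 and scipy 1.17.1 were used.

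Members and lists were chosen with earlier results of these data known. Values are given for every called member except 1 that is not reported here, for members of the function lists with a mean over 10000, for the 5 members with the highest mean, for members with at least 20 recovered reads whose groups do not overlap, and for Pof, egg and the HP1a gene; the other uncalled genes, the regulators that were called and the recovered members with overlapping groups were chosen after their values were seen. After the data were seen, apolpp was taken off the neuronal list, CG1674 off the transcription list, and CG31998 and RhoGAP102A off the housekeeping list, because their roles were wrong or unknown there. With them, 10 of 23, 7 of 21 and 4 of 19 tested genes were called lower, and apolpp higher in the first.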

Additional observations from a re-analysis of the deposited data

How the results depend on the processing

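The 25 members called lower became 14 at an adjusted p under 0.01, and 14 lower with 0 higher when members that overlap another gene were left out, both by construction. At 0.1 there were 30. Adjustment over all genes with a p-value, minimum means of 500, 10 and 1000 (the last added after the data were seen) and protein-coding genes alone gave 24 or 25 lower, with apolpp higher. Centring fold changes on the median of genes with a mean of at least 500, a shift of -0.02, left 22 lower; CG31998, Taf3 and myo were lost. The median of members, -0.19, lay between -0.23 and -0.17 under the 4 alternatives planned for it, and at -0.15 over all 109 members with a p-value. Shrinkage was undone for 62 members, the minimum mean of 500 left 75 and leaving out overlaps left 53. Those medians therefore cover fewer genes than the 96 of the main value. The 4 members with both overexpression libraries below both controls became 5 to 9 when 1 library was left out, which by construction asks less. No member with a mean up to 1000 was called. Lower calls were also rare among other genes there, at 0.196% up to a mean of 100 and 1.11% from 100 to 1000. The part of depth was not tested. Normalization, count models and leaving out a library could not be varied for genes without recovered reads. No paired analysis was possible because the table gives no values per numbered replicate and the libraries recovered from low means are not numbered.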
